A study of Mus musculus with 4 samples.

Results

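The BCL2 family genes described here are 10 of the 55401 genes in the deposited tables, taken by their symbols in the gene identifiers. They are the guardian genes Bcl2, Bcl2l1, Mcl1, Bcl2a1a, Bcl2a1b and Bcl2a1d, whose products keep cells alive, the BH3-only genes Bcl2l11 and Bbc3, whose products trigger death, and the effector genes Bax and Bak1, whose products open the mitochondrial outer membrane. By Ensembl identifier, Bcl2 is ENSMUSG00000057329, Bcl2l1 is ENSMUSG00000007659, Mcl1 is ENSMUSG00000038612, Bcl2a1a is ENSMUSG00000102037, Bcl2a1b is ENSMUSG00000089929, Bcl2a1d is ENSMUSG00000099974, Bcl2l11 is ENSMUSG00000027381, Bbc3 is ENSMUSG00000002083, Bax is ENSMUSG00000003873 and Bak1 is ENSMUSG00000057789. Each of the 10 had exactly 1 row in every table, and 8 of them had a mean level of at least 10 counts-per-million (CPM). Below that minimum lay Bcl2a1a and Bak1, which are described by their values but not counted among members apart.

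RNA was sequenced from CD8+ T cells, sorted from the lungs of C57BL/6J mice by their surface CD3 and CD8. The groups were CD4-depleted IPF-LC, isotype IPF-LC, CD4-depleted LC and isotype LC, where IPF-LC and LC are mouse models whose names the labels do not spell out, and the mice received either an antibody that depletes CD4+ cells or an isotype antibody. All groups share the strain, the tissue and the sort, and the labels give neither the age of the mice nor how many mice stand behind a library. Each group is 1 library, so no value has a replicate error and differences between mice cannot be measured.

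Mitochondrial apoptosis is set by binding among these proteins. Guardians such as BCL2, BCL-XL (from Bcl2l1), MCL1 and A1 (from the Bcl2a1 genes) hold BAX and BAK in check; BH3-only proteins such as BIM (from Bcl2l11) and PUMA (from Bbc3) occupy the guardians and so release the effectors. In T cells, BCL2 is maintained by interleukin-7, MCL1 by cytokine signals of the common gamma chain, and BCL-XL and A1 by receptor and NF-kappa B signals on activation, while BIM drives the loss of T cells when a response ends. The proteins are also controlled after translation, MCL1 above all, and transcript levels do not show that control.

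Library totals lay between 14946569 and 16217672 expected counts, with 14657 to 16415 genes detected. Levels of 1 gene across libraries are given as CPM after TMM scaling (trimmed mean of M-values), and levels of different genes are compared as transcripts-per-million (TPM), which allow for transcript length. Ratios are log2 of CPM in the first-named library over the second-named, with an exact 95% counting interval that covers counting error only. The 13 CD8 T cell identity genes were all detected in each library and summed to between 6516 and 7697 CPM. Cd4, the gene of the coreceptor that the depleting antibody binds, had 0 counts in CD4-depleted IPF-LC against 73 in isotype IPF-LC, and 16 in CD4-depleted LC against 12 in isotype LC. Markers of other cells were present and differed between the libraries. Macrophages and monocytes were read from 20 markers, whose sum was 1297 CPM in CD4-depleted IPF-LC and 3682 CPM in isotype IPF-LC, and 324 CPM in CD4-depleted LC and 5147 CPM in isotype LC. The 11 regulatory T cell markers summed to 728 and 286 CPM in the CD4-depleted and isotype IPF-LC libraries, and to 628 and 500 CPM in the CD4-depleted and isotype LC libraries. Over the 4 libraries the sums ran from 4.27 to 161 CPM for the 11 neutrophil markers, 302 to 499 for the 11 B and plasma cell markers, 239 to 502 for the 10 natural killer cell markers, 139 to 354 for the 9 endothelial, 15.2 to 75.1 for the 8 epithelial and 7.44 to 107 for the 8 fibroblast markers. Fewer cells of a type and less RNA per cell cannot be told apart in such bulk libraries.

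The A1 genes need their sequences shown first, because reads are shared among them. Mouse carries several near-identical copies of A1 on chromosome 9, and the transcripts of Bcl2a1a and Bcl2a1b are 98.2% identical over aligned bases, those of Bcl2a1a and Bcl2a1d 98.8%, and those of Bcl2a1b and Bcl2a1d 99.1% (GENCODE M21 transcripts, build GRCm38). Their coding parts are each 516 bases long and differ among the 3 genes at 12 positions. The first 60 coding bases hold 6 of these and are shown here as a stretch that tells the copies apart, in the sense of the messenger RNA, with the positions that are not the same in all 3 genes in capitals. The stretches lie in exon 1, at chr9:88957051-88957110 on the plus strand for Bcl2a1a, chr9:89199360-89199419 on the plus strand for Bcl2a1b and chr9:88731660-88731719 on the minus strand for Bcl2a1d.
Bcl2a1a: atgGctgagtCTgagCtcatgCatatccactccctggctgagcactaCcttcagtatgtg
Bcl2a1b: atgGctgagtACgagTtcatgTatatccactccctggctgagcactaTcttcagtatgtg
Bcl2a1d: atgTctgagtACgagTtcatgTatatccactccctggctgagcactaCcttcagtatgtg
In the coding part Bcl2a1a has its own base at 6 positions, Bcl2a1b at 5 and Bcl2a1d at 1. Of all windows of 100 bases in each transcript, 56.5% in Bcl2a1a, 68.9% in Bcl2a1b and 45.3% in Bcl2a1d occur in neither of the other copies. Read length is not given in the sources used here, so this window is only a guide to how many reads could be placed. The authors' expected counts divide the remaining reads by estimation, and each single A1 value is therefore uncertain beyond its counting interval, whereas their sum does not depend on that division among the 3 copies.

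The most abundant members by TPM were Bcl2a1b, Bax and Mcl1 in 3 of the 4 libraries. In CD4-depleted IPF-LC the order was Bcl2a1b (259 TPM), Mcl1 (212), Bax (208), Bcl2a1d (163) and Bcl2l11 (119). In isotype IPF-LC it was Bax (227 TPM), Bcl2a1b (166), Mcl1 (107), Bcl2l11 (104) and Bcl2 (69.0). The CD4-depleted LC library had Bcl2a1b (225 TPM), Bax (198), Mcl1 (144), Bcl2l11 (110) and Bcl2a1d (96.0) in front. In isotype LC Bax (248 TPM) and Bcl2a1b (212) led, followed by Bcl2l11 (117), Bcl2a1d (103) and Bcl2 (79.8), and Mcl1 stood sixth at 79.7 TPM. Neighbours such as Bcl2 and Mcl1 in isotype LC, or Mcl1 and Bax in CD4-depleted IPF-LC, lay too close to be ordered without replicates. Across libraries the spread was narrow for Bcl2l11, whose highest TPM was 1.14 times its lowest, for Bcl2 (1.16 times) and for Bax (1.25 times). It was wide for Mcl1 (2.66 times), Bcl2l1 (2.91 times) and Bcl2a1a (9.81 times).

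**Figure D1:**
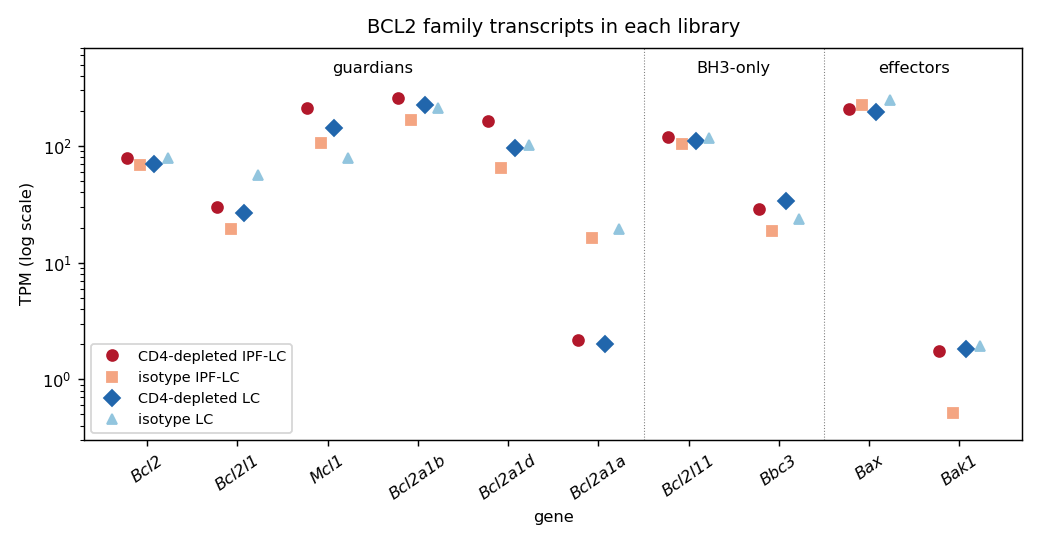
TPM of each of the 10 genes on a log axis, with 1 point for each library and genes grouped by role. Bcl2, Bcl2l11 and Bax varied at most 1.25-fold across the 4 libraries, whereas Bcl2a1a was near 2 TPM in both CD4-depleted libraries and between 16.3 and 19.5 TPM in both isotype libraries.

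The first question was how the family differed between CD4-depleted and isotype IPF-LC. Each of the 5 guardian genes above the minimum had a higher level in the CD4-depleted library, as did 4227 of all 8433 genes above the minimum. The median log2 ratio was 0.69 for these guardians and 0.0016 for all genes above the minimum. The 5 include the near-identical copies Bcl2a1b and Bcl2a1d, and Bcl2a1a, the guardian below the minimum, had a ratio of -2.79. Among the 8 members above the minimum, 2 were at least 2-fold higher, Mcl1 and Bcl2a1d, and 0 were at least 2-fold lower. Of all genes above the minimum, 10.1% were at least 2-fold apart in this comparison, 4.08% higher and 6.02% lower. With 1 library a group, the count of 2 in 8 was not tested against these shares.

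In LC, Mcl1 had the highest ratio of the 8 members, and the guardian genes were not higher on the whole. Their median ratio was -0.02, beside 0.057 for all genes above the minimum. None of the 8 members was at least 2-fold apart, where 8.43% of all genes were, 2.59% higher and 5.85% lower. Over the 8 members the median ratio was 0.66 in IPF-LC and -0.0011 in LC.

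Mcl1, the guardian that T cells need at nearly every stage of their life, was higher after depletion in both models. Its level was 524 CPM in CD4-depleted IPF-LC and 254 CPM in isotype IPF-LC, a log2 ratio of 1.04 (95% counting interval 0.99 to 1.10). In LC it was 343 CPM in the CD4-depleted library and 180 CPM in the isotype library, a ratio of 0.93 (0.87 to 1.00). Both CD4-depleted libraries thus lay above both isotype libraries, and within each treatment IPF-LC lay above LC. The ratio of IPF-LC over LC was 0.50 (0.43 to 0.57) with isotype antibody and 0.61 (0.56 to 0.66) after depletion, so the model difference was under 2-fold in both. In IPF-LC the 2-fold mark was missed by little when library totals (0.97) or the deposited TPM (0.99) took the place of TMM scaling. Among the 8433 genes above the minimum, 69 (0.818%) had ratios of at least 0.93 in both models. All reads of Mcl1 were assigned at one mean transcript length of 3418 bases in the 4 libraries, so its length did not vary. The regulatory T cell markers were also higher in both CD4-depleted libraries, and the macrophage and monocyte markers lower, as given above; their part in the Mcl1 values was not tested.

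The ratios in IPF-LC and in LC come from separate pairs of libraries, and the additive model over all 4 libraries, with terms for model and treatment, is the fit used here that leaves a residual degree of freedom, 1 in all. edgeR's quasi-likelihood test called 0 of the 10 members and 0 of 13050 genes (0%) with treatment at a Benjamini-Hochberg adjusted p under 0.05, while 2 members, Mcl1 and Bcl2a1a, and 1305 genes (10%) had an unadjusted p under 0.05. Mcl1 had a log2 difference with depletion of 0.97 (SE 0.17, edgeR adjusted p = 0.261), higher in 2 of 2 CD4-depleted libraries. DESeq2 in the same design called 1 member, Mcl1 (adjusted p = 0.000122), among 481 genes (3.69%), and limma-voom called 0 members and 0 genes, with 1618 genes (12.4%) at an unadjusted p under 0.05. edgeR restricted to genes above the 10 CPM minimum also called Mcl1 (adjusted p = 0.0388), among 134 genes (1.59%). Over the alternatives that were run, the adjusted p of Mcl1 lay between 0.000122 and 0.392, so its call depends on the tool and the filter. For the model term, edgeR called 0 of the 10 members and 0 of 13050 genes. At an unadjusted p under 0.05 there was 1 member, Mcl1 (log2 difference 0.53, SE 0.17, adjusted p = 1.00), among 266 genes (2.04%). There DESeq2 called 0 members among 5 genes (0.0383%), and limma-voom called 0 members and 0 genes, with 463 genes (3.55%) at an unadjusted p under 0.05. The spread in this fit comes from how far the depletion ratios of the models differ, so a gene whose ratio is unlike in IPF-LC and LC counts as noisy.

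**Figure D2:**
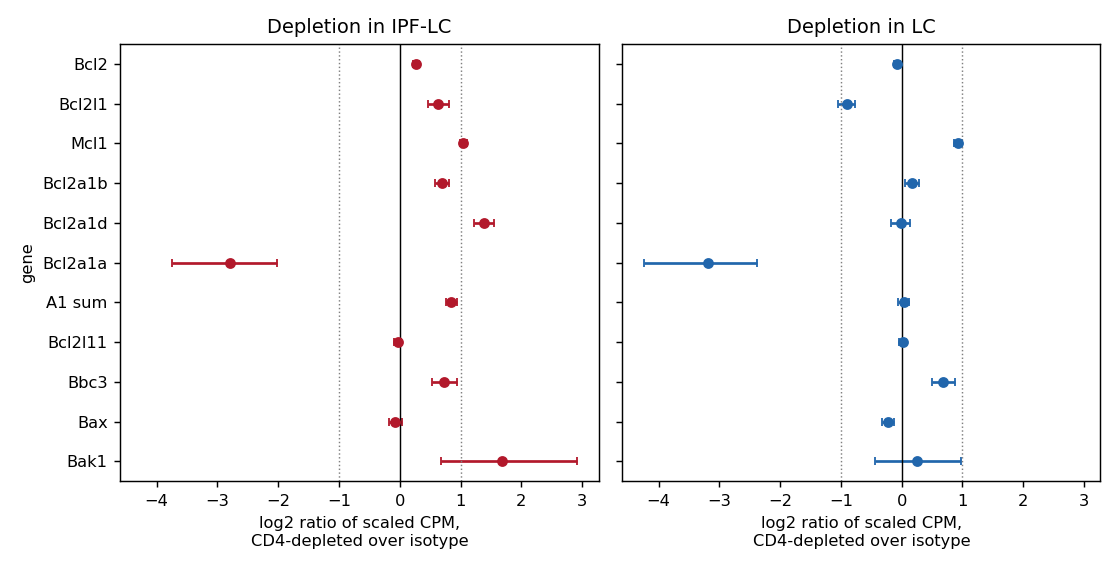
Log2 ratio of scaled CPM, CD4-depleted over isotype, for each gene and for the sum of the 3 A1 genes, in IPF-LC on the left and in LC on the right; bars are exact 95% counting intervals and dotted lines mark 2-fold. Mcl1 and Bbc3 lay right of 0 in both panels, Bcl2l1 lay right of 0 in IPF-LC and left of it in LC, and Bcl2a1a lay below -2 in both.

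Bcl2l1, whose main product BCL-XL protects activated lymphocytes, had depletion ratios on opposite sides of 0 in the models. It had 48.6 CPM in CD4-depleted IPF-LC and 31.3 CPM in isotype IPF-LC, a ratio of 0.64 (0.47 to 0.80). In LC it had 40.4 CPM in the CD4-depleted library and 75.5 CPM in the isotype library, a ratio of -0.90 (-1.04 to -0.76). The isotype libraries were thus the lowest and the highest of the 4, and the depleted ones lay between them. The difference between the depletion ratios, IPF-LC minus LC, was 1.54 (1.32 to 1.75, counting error only), with no replicate to test it. Bcl2l1 was the 1 member of 8 at least 2-fold apart between IPF-LC and LC with isotype antibody, at a ratio of -1.27 (-1.43 to -1.12), where 6.01% of all genes above the minimum were apart, 1.91% higher and 4.1% lower. After depletion the ratio of IPF-LC over LC was 0.27 (0.11 to 0.42), and 0 of 8 members were 2-fold apart, beside 5.87% of all genes, 3.3% higher and 2.57% lower. By TPM, the depletion ratio in LC passed 2-fold at -1.07. The mean transcript length assigned to Bcl2l1, an estimate from 1 library a group, ranged from 2148 bases in isotype LC to 2414 bases in isotype IPF-LC. Long and short splice forms were not separated at the gene level, so a difference in the mix of its transcripts was not tested. The isotype LC library, where Bcl2l1 was highest, also had the highest summed macrophage and monocyte (5147 CPM), neutrophil (161 CPM), natural killer cell (502 CPM), endothelial (354 CPM), epithelial (75.1 CPM) and fibroblast (107 CPM) markers, and their part in its level was not tested.

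Bcl2, the guardian of naive and memory T cells, was among the steadiest members. It had 413 CPM in CD4-depleted IPF-LC, 344 in isotype IPF-LC, 359 in CD4-depleted LC and 379 in isotype LC. The depletion ratios were 0.26 (0.21 to 0.32) in IPF-LC and -0.08 (-0.13 to -0.02) in LC, both far under 2-fold. Gene models that overlap Bcl2 in the older annotation had at most 20 counts in any library, beside 5380 to 6444 for Bcl2.

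Taken as a sum, the A1 genes were higher after depletion in IPF-LC and close to level in LC. Bcl2a1a, Bcl2a1b and Bcl2a1d together had 177 CPM in CD4-depleted IPF-LC and 98.4 CPM in isotype IPF-LC, a ratio of 0.85 (0.76 to 0.94). In LC the sum was 130 CPM in the CD4-depleted library and 127 CPM in the isotype library, a ratio of 0.03 (-0.06 to 0.12), whose sign turned with median-of-ratios scaling (-0.0038), library totals (-0.03), TPM (-0.05) and scaling to the CD8 T cell identity genes (-0.22). The CD4-depleted IPF-LC library was the highest of the 4 and isotype IPF-LC the lowest. The difference between the depletion ratios was 0.82 (0.69 to 0.94). Bcl2a1b, the most abundant copy, had ratios of 0.69 (0.58 to 0.81) in IPF-LC and 0.17 (0.06 to 0.28) in LC, the second of which was -0.08 under the same CD8 scaling. Bcl2a1d had 71.7 CPM in CD4-depleted IPF-LC and 27.4 CPM in isotype IPF-LC, a ratio of 1.39 (1.23 to 1.55). Its levels in LC were 41.0 CPM in the CD4-depleted and 41.5 CPM in the isotype library, a ratio of -0.02 (-0.18 to 0.14), which is not a detectable difference at this depth. A gene model on the same strand that overlaps Bcl2a1b in the older annotation had 0 to 29 counts, beside 1010 to 1628 for Bcl2a1b.

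Bcl2a1a had ratios far below those of its copies. Its expected counts were 14 in CD4-depleted IPF-LC and 100 in isotype IPF-LC, and 12 in CD4-depleted LC and 112 in isotype LC. The ratios were -2.79 (-3.75 to -2.02) in IPF-LC and -3.19 (-4.24 to -2.38) in LC, or 6.91-fold and 9.13-fold lower. Of all genes above the minimum, 0.854% in IPF-LC and 2.24% in LC had ratios at least as far from 0. Bcl2a1a itself lay below that minimum. Bcl2a1a made up 0.499% of the A1 counts in CD4-depleted IPF-LC, 6.47% in isotype IPF-LC, 0.602% in CD4-depleted LC and 5.69% in isotype LC. In the additive model its log2 difference with depletion was -3.05 (SE 0.91, edgeR adjusted p = 0.409), lower in 2 of 2 depleted libraries. The adjusted p ran from 0.200 to 0.602 over the alternatives, so it passed in none of those that kept it. The summed markers of macrophages and monocytes, cells that also express A1, were lower in the same libraries. Of the 20 markers, 17 were detected in CD4-depleted IPF-LC against 19 in isotype IPF-LC, and 13 in CD4-depleted LC against 20 in isotype LC. The summed neutrophil, B and plasma cell, natural killer cell, endothelial, epithelial and fibroblast markers were lower as well in each CD4-depleted library than in the isotype library of its model. For fibroblast markers the sums were 7.44 CPM in CD4-depleted IPF-LC and 57.5 CPM in isotype IPF-LC, and 9.06 CPM in CD4-depleted LC and 107 CPM in isotype LC. For endothelial markers they were 155 and 284 CPM in the CD4-depleted and isotype IPF-LC libraries, and 139 and 354 CPM in the CD4-depleted and isotype LC libraries. Adgre1 and C1qa were among the 7 macrophage and monocyte markers at 0 counts in CD4-depleted LC, and Fcgr1, Marco and Siglecf were the 3 at 0 in CD4-depleted IPF-LC. The part of such cells, and of how reads were divided among the copies, in the Bcl2a1a values was not tested.

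**Figure D3:**
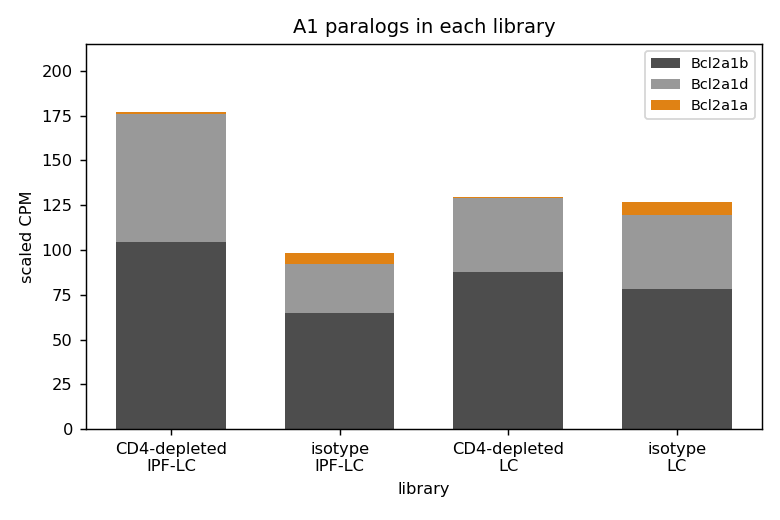
Scaled CPM of the 3 A1 genes, stacked, in each library, as the authors' expected counts divide the reads among them. The stack was highest in CD4-depleted IPF-LC at 177 CPM, and the Bcl2a1a portion was 6.40 and 7.25 CPM in the isotype IPF-LC and LC libraries and under 1 CPM in both CD4-depleted libraries.

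Of the BH3-only genes, Bbc3 was higher after depletion in both models and Bcl2l11 was level. Bbc3, which encodes PUMA, had 33.9 CPM in CD4-depleted IPF-LC and 20.3 CPM in isotype IPF-LC, a ratio of 0.73 (0.53 to 0.94). In LC it had 38.7 CPM in the CD4-depleted library and 24.1 CPM in the isotype library, a ratio of 0.69 (0.50 to 0.88). Of all genes above the minimum, 8.80% in IPF-LC and 6.87% in LC had depletion ratios at least as high as that of Bbc3. The Bbc3 ratios of the models differed by 0.05 (-0.22 to 0.32). The log2 difference of Bbc3 in the additive model was 0.69 (SE 0.30, edgeR adjusted p = 0.548), and no alternative called it. Bcl2l11, which encodes BIM, had 334 CPM in CD4-depleted IPF-LC and 343 CPM in isotype IPF-LC, and 325 CPM in CD4-depleted LC and 321 CPM in isotype LC. Its depletion ratios, -0.04 (-0.09 to 0.02) and 0.02 (-0.04 to 0.07), were not detectable as differences at this depth, and both changed sign by TPM, to 0.19 and -0.09, and when scaled to the CD8 T cell identity genes, to 0.11 and -0.23. The mean transcript length assigned to Bcl2l11 was 3844 bases in CD4-depleted IPF-LC, 4599 in isotype IPF-LC, 4154 in CD4-depleted LC and 4082 in isotype LC. BIM has several splice forms, which the gene tables do not separate.

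Both BH3-only genes have been described as targets of FOXO transcription factors, BCL2 family guardians as targets of STAT and NF-kappa B factors, and the promoter windows of all members were searched for their motifs. RefSeq windows (build GRCm38.p6, 250 bases before to 50 after a transcript start) were found for all 10 members, 15 windows in all. The FOXO core GTAAACA, on either strand, occurred in 2 of the 15, belonging to Bbc3 and Bcl2l11, and in 3.65% of all 32851 windows. The stretches of 80 bases around the matches are shown because these are the pair of members with a match, with the match in capitals. That of Bbc3 is chr7:16310058-16310137 and that of Bcl2l11 is chr2:128125788-128125867, both on the plus strand.
Bbc3: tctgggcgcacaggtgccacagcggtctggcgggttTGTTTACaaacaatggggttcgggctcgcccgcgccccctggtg
Bcl2l11: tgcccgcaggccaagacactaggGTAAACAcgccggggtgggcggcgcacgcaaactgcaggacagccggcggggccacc
The pair of genes with a match differed in their depletion ratios, 0.73 and 0.69 for Bbc3 against -0.04 and 0.02 for Bcl2l11, and a match is a description of the letters only. TTCNNNGAA, the palindrome bound by STAT factors, was found on either strand in 0 of the 15 windows, against 8.3% of all windows. The kappa B consensus was found in windows of Bcl2l1 and Bbc3, 2 of the 15, against 8.46% of all windows, and in none of the A1 windows. No overlap between FOXO and kappa B matches occurred, as they lay in different windows. The A1 windows were themselves 98.0 to 99.2% identical over aligned bases.

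The effectors showed little. Bax, the effector that shuttles to mitochondria, had 98.5 CPM in CD4-depleted IPF-LC and 104 CPM in isotype IPF-LC, and 89.9 CPM in CD4-depleted LC and 105 CPM in isotype LC. Its depletion ratios were -0.07 (-0.17 to 0.03) in IPF-LC, which was 0.07 when scaled to the CD8 T cell identity genes, and -0.23 (-0.33 to -0.12) in LC. Bak1, the effector that resides on mitochondria, was close to the limit of detection. Bak1 had 33 counts in CD4-depleted IPF-LC and 10 in isotype IPF-LC, and 40 in CD4-depleted LC and 33 in isotype LC. Its ratio was 1.68 (0.67 to 2.91) in IPF-LC and 0.25 (-0.44 to 0.97) in LC, so isotype IPF-LC stood below the other three, on 10 counts.

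With isotype antibody, 4 of the 5 guardians above the minimum were lower in IPF-LC than in LC, with a median ratio of -0.28, and after depletion 5 of 5 were higher, with a median of 0.27. All genes above the minimum had medians of 0.023 and 0, and 4431 and 4211 of these 8433 genes had ratios above 0. Bcl2a1d had ratios of IPF-LC over LC of -0.60 (-0.78 to -0.42) with isotype antibody and 0.81 (0.67 to 0.95) after depletion. Its depletion ratios thus differed by 1.41 (1.18 to 1.63) between the models. The sum of the A1 genes had -0.37 and 0.45, and Bcl2 had -0.14 (-0.19 to -0.08) and 0.20 (0.15 to 0.26). Mcl1 was the guardian with positive ratios in both. Bbc3 was slightly lower in IPF-LC in both, at -0.24 (-0.46 to -0.02) and -0.19 (-0.36 to -0.02). These comparisons share their libraries with the depletion ratios and are a second reading of the same 4 values. The regulatory T cell markers summed to 286 CPM in isotype IPF-LC and 500 CPM in isotype LC, and their part, like that of the macrophage markers, was not tested.

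Summed by role, guardian transcripts reached 747 TPM in CD4-depleted IPF-LC and 443 TPM in isotype IPF-LC, and 563 TPM in CD4-depleted LC and 551 TPM in isotype LC. The BH3-only genes summed to 148 and 123 TPM in the CD4-depleted and isotype IPF-LC libraries, and to 144 and 141 TPM in the CD4-depleted and isotype LC libraries. The effectors summed to 209 and 228 TPM in the CD4-depleted and isotype IPF-LC libraries, and to 200 and 250 TPM in the CD4-depleted and isotype LC libraries. The guardian sum was 2.09 times the sum of these BH3-only and effector genes in CD4-depleted IPF-LC and 1.26 times in isotype IPF-LC. In LC it was 1.64 times in the CD4-depleted and 1.41 times in the isotype library. Death genes outside the members, such as Pmaip1 and Bid, are left out of these sums. Pmaip1, whose product is BH3-only, had 147 CPM in CD4-depleted IPF-LC and 64.1 CPM in isotype IPF-LC. Its log2 depletion ratios were 1.20 in IPF-LC and -0.06 in LC, and those of Bid were -1.08 and -0.26. How such genes would move the guardian ratios was not tested. Within the guardians, Mcl1 had 2.66 times the TPM of Bcl2 in CD4-depleted IPF-LC, 1.55 times in isotype IPF-LC, 2.06 times in CD4-depleted LC and 0.999 times in isotype LC. Bcl2l11 had between 1.47 and 1.58 times the TPM of Bcl2 in every library. Set against Mcl1, it had 0.561 times the TPM in CD4-depleted IPF-LC, 0.977 times in isotype IPF-LC, 0.766 times in CD4-depleted LC and 1.47 times in isotype LC.

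**Figure D4:**
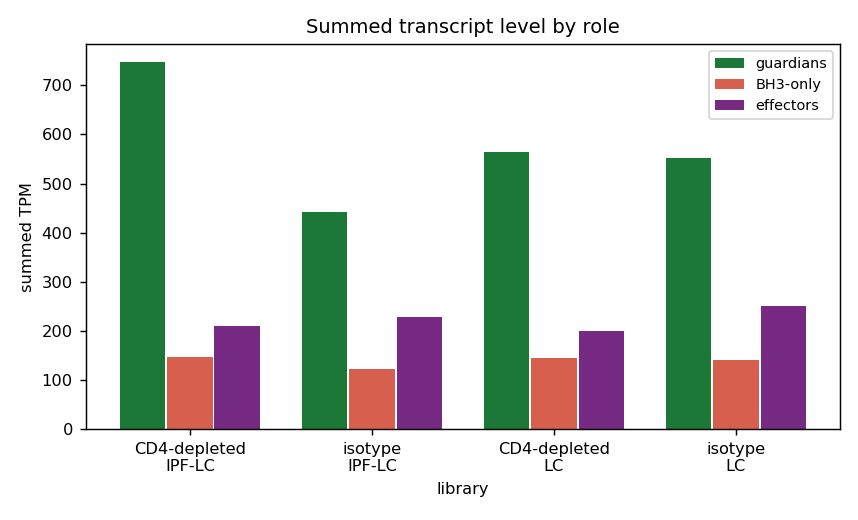
Summed TPM of the 6 guardian, 2 BH3-only and 2 effector genes in each library. Other BCL2 family genes, such as Pmaip1 and Bid, are not in the sums. The guardian bar was highest in CD4-depleted IPF-LC (747 TPM) and lowest in isotype IPF-LC (443 TPM), while the BH3-only sums lay between 123 and 148 TPM and the effector sums between 200 and 250 TPM.

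The wider pathway was read from 8 lists of genes upstream and downstream of the family, each over its genes above the 10 CPM minimum. Counts in each list stand beside the shares of all genes above the minimum. With depletion in IPF-LC 4.08% of these were at least 2-fold higher and 6.02% lower, and in LC 2.59% and 5.85%. The list of survival cytokine signalling genes came first. It also holds Foxo1 and Foxo3, genes of the FOXO factors named above for the BH3-only genes. Among 18 survival cytokine signalling genes, 4 were at least 2-fold higher and 0 lower in CD4-depleted IPF-LC, with a median ratio of 0.47. They were Il2ra (1.31), the alpha chain of the interleukin-2 receptor, the transcription factor genes Stat3 (1.31) and Stat5a (1.26), and Pim1 (1.09), a kinase induced by cytokines. In LC 0 of the 18 were 2-fold apart and the median was 0.06, with Foxo1 at 0.91, Stat5b at 0.80, Akt1 at -0.90 and Stat3 at -0.72. Il2ra marks regulatory T cells as well, and Foxp3, which defines them, had 29.3 CPM in CD4-depleted IPF-LC and 1.47 CPM in isotype IPF-LC, and 32.5 CPM in CD4-depleted LC and 3.88 CPM in isotype LC; the part of such cells in these values was not tested.

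All 12 NF-kappa B subunit and target genes had ratios above 0 in IPF-LC, or 9 of 12 when scaled by library totals, and none reached 2-fold. Under TMM scaling 4227 of all 8433 genes above the minimum had ratios above 0 there, and 10.1% were at least 2-fold apart. Their median was 0.33, led by the subunit genes Relb (0.80), Nfkb1 (0.72), Nfkb2 (0.66) and Rela (0.56). In LC 6 of the 12 were above 0, beside 4728 of all 8433 genes. The median of the 12 was 0.0098, and Rela (0.71) stood farthest from 0. The 12 p53 pathway genes were centred near 0 in both models, with medians of -0.018 and 0.035. Perp, a p53 target of the cell membrane, was 2-fold higher in IPF-LC (1.23) and had a ratio of -0.79 in LC, and Cdkn1a, the cell cycle inhibitor p21, was 2-fold lower in LC (-1.28).

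Other BCL2 family genes were mostly too low to count, with 5 of 16 above the minimum. Pmaip1, whose product NOXA is a BH3-only protein that binds MCL1 and A1, had 147 CPM in the CD4-depleted and 64.1 CPM in isotype IPF-LC, a ratio of 1.20 (1.09 to 1.31). Bid, which links death receptors to mitochondria, had a ratio of -1.08 (-1.33 to -0.83) in IPF-LC and -0.26 (-0.48 to -0.05) in LC. In LC 0 of the 5 were 2-fold apart. The shares of all genes above the minimum that were 2-fold apart were 10.1% in IPF-LC and 8.43% in LC. Between the models with isotype antibody, Pmaip1 had 64.1 CPM in IPF-LC and 130 CPM in LC and was lower in IPF-LC (-1.02, -1.13 to -0.91), as Bcl2l1 was. Among 14 genes that control BCL2 family proteins, such as ubiquitin ligases and BAG cochaperones, 0 were 2-fold apart in IPF-LC (median 0.035) and 1 was in LC (median 0.14), Bag3 at -1.09.

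Downstream of the family, all 13 apoptosome and caspase genes were above the minimum. Casp9, the caspase of the apoptosome, had a ratio of -2.18 (-2.61 to -1.79) in IPF-LC. In LC none of the 13 was 2-fold apart, beside 8.43% of all genes above the minimum. The list's medians were -0.20 in IPF-LC and -0.11 in LC. Of the inhibitor of apoptosis genes 5 of 10 were measured and none was 2-fold apart in either model, beside 10.1% and 8.43% of all genes. Their medians were 0.32 in IPF-LC and -0.24 in LC. Of these 5, 4 had ratios above 0 in IPF-LC and 2 in LC, beside 4227 and 4728 of all 8433 genes above the minimum. Birc5, which encodes survivin, a protein of dividing cells, had ratios of 0.65 and 0.98. Birc2, which encodes a ubiquitin ligase of tumour necrosis factor signalling, had 0.63 and 0.31. Xiap had 0.32 and -0.62, and Birc3 had 0.27 and -0.48.

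Death receptor genes pointed both ways. Of 11 measured, 1 was at least 2-fold higher and 1 lower in IPF-LC, and 0 and 2 in LC, with medians of -0.31 and -0.23. The shares of all genes above the minimum were 4.08% higher and 6.02% lower in IPF-LC, and 2.59% and 5.85% in LC. Fasl, the ligand with which T cells kill through Fas, had 161 CPM in the CD4-depleted and 60.3 CPM in isotype IPF-LC (1.41). Fas itself had a ratio of -0.83 there. Tnfsf10, which encodes the death ligand TRAIL, was lower in both models (-2.07 and -2.12). Tnfrsf1a, a tumour necrosis factor receptor, had ratios of -0.56 in IPF-LC and -1.45 in LC. The summed macrophage and monocyte markers were lower after depletion in both models, and the part of such cells in these values was not tested.

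Over the 8 lists, 12 of 89 measured genes, each counted once, were at least 2-fold apart with depletion in IPF-LC, 8 higher and 4 lower, and 4 of 89 in LC, all lower, beside the 10.1% and 8.43% of all genes. Between the models with isotype antibody, 7 of the 89 were at least 2-fold apart, beside 6.01% of all genes. Beside Pmaip1 these included Il2ra (-2.46), Stat3 (-1.13), Perp (-1.10) and Bag3 (-1.21), lower in IPF-LC. Endog, a mitochondrial nuclease, and Fbxw7, a ubiquitin ligase subunit that marks MCL1 for breakdown, were higher (1.22 and 1.02). After depletion 3 were apart, beside 5.87% of all genes: Casp9 (-2.47), Il2ra (-1.45) and Birc5 (-1.08), each lower in IPF-LC.

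**Figure D5:**
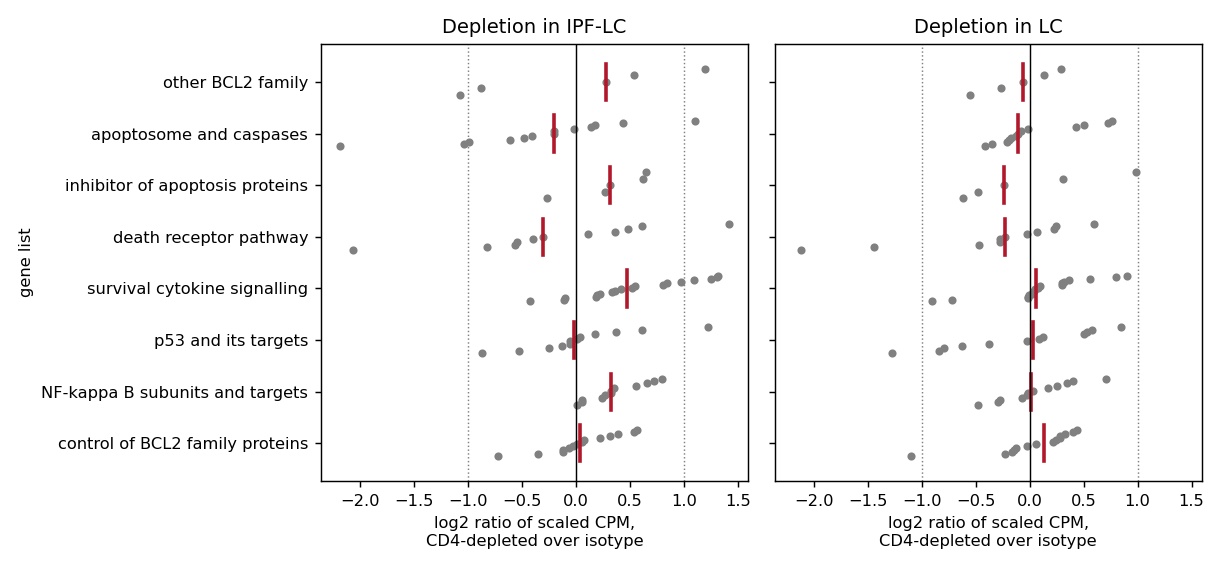
Log2 ratio of scaled CPM, CD4-depleted over isotype, of each gene with a mean of at least 10 CPM in the 8 pathway lists, with red bars at the list medians, in IPF-LC on the left and in LC on the right; dotted lines mark 2-fold. Survival cytokine signalling had the highest median in IPF-LC (0.47). There all 12 NF-kappa B genes lay right of 0 under TMM scaling, beside 4227 of all 8433 genes, and 9 under library totals.

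Genes whose levels followed a member most closely were found by the root mean squared distance between centred log2 CPM over the 4 libraries, among 8433 genes, as a description. Nearest to Mcl1 were Smim13 (distance 0.019), Arid1b (0.022), a chromatin remodelling subunit, and Foxo1 (0.044), a transcription factor of quiescent T cells. Foxo1 had 424 CPM in CD4-depleted IPF-LC, 216 in isotype IPF-LC, 295 in CD4-depleted LC and 158 in isotype LC. Nearest to Bbc3 were Ube3c (0.027), Gata3 (0.033) and Ikzf3 (0.033), the last pair being lymphocyte transcription factors. Nearest to Bcl2a1b was Ptpn22 (0.015), a phosphatase of T cell receptor signalling, and nearest to Bcl2l1 were Smim3 (0.062), Trib1 (0.087) and Tmem199 (0.092). For the steady members Bcl2, Bcl2l11 and Bax, the nearest genes Pttg1ip (0.012), Cmtm6 (0.011) and Noct (0.0066) were as steady and say little. With 4 libraries and 8433 genes, close neighbours arise for any pattern.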

How the data were processed

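RNA was sequenced from sorted lung CD8+ T cells, with 1 library for each of 4 groups assigned by the labels. Software named without roles in the submitters' processing notes was RSEM 1.3.3, STAR 2.7.11a, fastp 0.23.4 and MultiQC 1.25.2, with the build GRCm39; the annotation release is not given in the sources used here. Expected counts, as deposited, estimate each gene's reads; of these 5.49 to 5.89% were not whole, and were rounded. The deposited TPM values were scaled per library by the authors. Gene lengths are those of the deposited tables, per the file headers. Reference sequences and gene neighbours came from GRCm38, an older build, whose coordinates apply to the printed sequences only.

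Counts were scaled by TMM (edgeR 4.0.16) and log2 ratios formed with a prior count of 0.5. Intervals are exact conditional binomial ones at 95%, and cover counting error only, as reads without molecular identifiers are not independent molecules; the interval of a difference between ratios is a normal approximation from the counts. A gene was counted as apart at 2-fold with a mean of at least 10 CPM. The additive model was tested two-sided over genes kept by filterByExpr, and calls needed a p under 0.05 after Benjamini-Hochberg adjustment; the SE was derived from its F statistic, and DESeq2 1.42.0 and limma 3.58.1 were alternatives. Ratios, intervals and the model were tested on simulated data. For the model the simulated dispersion was at most 0.05, below the common dispersion of 0.228 in these data, and no interaction was simulated. That check therefore cannot show how the model behaves at the spread seen here. Comparisons that share a library are not independent. There were 8 pathway lists and 9 marker lists; members and lists were chosen with earlier results of these data known. All 10 members are named, and of each list at most 4 genes with the largest ratios in a comparison; for each member the 3 nearest genes were computed. Cd4, Foxp3 and markers at 0 counts are given as checks. Values of some listed genes are not reported here.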

Additional observations from a re-analysis of the deposited data

Results flagged for a closer look

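Bcl2l1 had depletion ratios whose counting intervals lay on opposite sides of 0 in the models, 0.64 in IPF-LC and -0.90 in LC, a difference of 1.54 on the log2 scale. Bcl2 did so as well, at 0.26 and -0.08, a difference of 0.34. With 1 library a group these differences were not tested.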

How the results depend on the processing

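Of 220 alternative values of the member ratios, 170 stayed within the counting interval of the reported value, 50 lay outside it, and 0 ratios of at least 2-fold changed sign; 32 of the 50 came from scaling to the 13 CD8 T cell identity genes, an alternative chosen after seeing the data. That scaling moved the median ratio of all genes to 0.14 in IPF-LC and -0.19 in LC for depletion, and to -0.21 with isotype antibody and 0.16 after depletion for IPF-LC over LC, and Mcl1, at 1.19 and 0.68, was still above the shifted median. Members at least 2-fold apart numbered 2 for depletion in IPF-LC. The count was 5 at 1.5-fold (28% of all genes), 4 from a mean of 1 CPM up (22.5%) and 4 with no filter (34.8%), and 1 with the whole interval beyond 2-fold (6.31%), with the A1 genes summed, with library totals (10.4%) and by TPM (10.7%). For depletion in LC the count of 0 became 3 at 1.5-fold (20.3%), 1 with at least 1 CPM (21.3%), 1 with no filter (36.4%), 1 by TPM (9.15%) and 1 with CD8 scaling (9.5%). For IPF-LC over LC the count of 1 with isotype antibody became 2 at 1.5-fold (18.6%), 2 with at least 1 CPM (17%) and 2 with no filter (33.5%), and the count of 0 after depletion became 2 at 1.5-fold (17.7%). The median-of-ratios scaling and a prior count of 2 left each of these counts of members apart as it was. In the additive model the 0 members called with treatment became 1, Mcl1, with DESeq2 and 1 with edgeR on genes above 10 CPM. No paired analysis was possible because each group has 1 library, and leaving out a library would leave the additive model no residual degree of freedom. Depth limits Bak1 and Bcl2a1a, which rest on 10 to 40 and 12 to 112 counts.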
